A study of Mus musculus with 6 samples.

Results

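To describe the eosinophil, basophil and mast cell transcripts in articular cartilage of wildtype and knockout (KO) mice, 10 genes were followed by their gene name in the deposited table of 34709 genes, and each of the 10 names matched a single row. They comprise 6 eosinophil genes (Prg2, Prg3, Epx, Ear1, Ear2 and Il5ra) and 4 basophil or mast cell genes (Mcpt8, Cpa3, Fcer1a and Ms4a2). The RNA came from articular cartilage of male mice, which were 18 months old per the study's methods. The KO mice were a purchased line, compared with wildtype littermates, and no other allele, treatment or surgery was given for these groups. Each group held 3 libraries of polyadenylated RNA, and whether a library stands for 1 animal or for pooled animals was not given in the sources used here, so p-values measure the spread between these libraries only. Levels are given in FPKM, fragments corrected for transcript length and library depth, which can be compared between genes.

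Eosinophils, basophils and mast cells are the granulocytes of allergic and antiparasitic responses, and eosinophils and basophils arise from progenitors in the bone marrow. Eosinophils pack cationic proteins into their granules while they mature, and their output depends on interleukin 5. Basophils and mast cells store proteases and histamine and are triggered through the high-affinity IgE receptor, which binds antibody on the cell surface. Transcripts of granule proteins are made mainly during maturation, which makes them markers of developing as well as of mature cells.

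KO replicates 2 and 3 differed far less than any other pair of libraries. Their noise ratio, which compares squared count differences with those of Poisson sampling, was 5.74, whereas the other 14 pairs ranged from 23 to 81.7. They were therefore counted as 1 sample by averaging, so the comparison held 2 KO samples and 3 wildtype samples. The library labelled KO replicate 1 lay on the wildtype side of the first principal component of all genes (13.5, against 16.1 to 20.2 for wildtype and -33.9 and -33.8 for KO replicates 2 and 3), which took 48.4% of the variance. The members' values are given with and without it. Total counts ranged from 52268311 to 63331135.

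The tissue label was checked against markers. Of the 16 chondrocyte markers, 14 had values above 0 in every library. The summed level of the 16 was 759 to 1008 FPKM in wildtype and 1694, 780 and 788 FPKM in KO replicates 1, 2 and 3. Prg4 alone made up the largest part of this sum, at 402 to 581 FPKM in wildtype and 1034, 436 and 441 FPKM in KO. Col2a1, the main collagen of cartilage, lay between 12.4 and 21.3 FPKM, and Matn1 and Matn3, a pair of cartilage matrix proteins, were at 0 in some libraries. By contrast, the 9 erythroid markers summed to 71710 to 108566 FPKM in wildtype, and to 60709, 25218 and 24953 FPKM in KO replicates 1, 2 and 3. The 12 neutrophil and granulocyte precursor markers summed to 26699 to 43339 FPKM in wildtype and 50982 to 62033 FPKM in the KO libraries. By these sums, erythroid and neutrophil markers outweighed chondrocyte markers in each of the 6 libraries. In such bulk samples, fewer cells of a type and less RNA per cell cannot be told apart.

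All 10 members were detected in every library. Prg2, which encodes the eosinophil major basic protein, stood far above the others at a mean of 694 FPKM and ranked 47 of all genes. Ear2 and Ear1, a pair of eosinophil-associated ribonucleases, followed at 152 and 142 FPKM, and Ear2 was above Ear1 in 4 of 6 libraries, so their order did not exceed the spread. Mcpt8, a protease of basophils, came next at 58.0 FPKM. Epx, eosinophil peroxidase, and Prg3, a homolog of Prg2, had means of 33.6 and 31.4 FPKM with overlapping ranges. Cpa3, a carboxypeptidase of mast cell and basophil granules, and Fcer1a, the IgE-binding chain of the receptor, both had a mean of 13.7 FPKM. Ms4a2, the receptor's beta chain, was at 5.38 FPKM and Il5ra, the ligand-binding chain of the interleukin 5 receptor, at 1.01 FPKM.

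**Figure D1:**
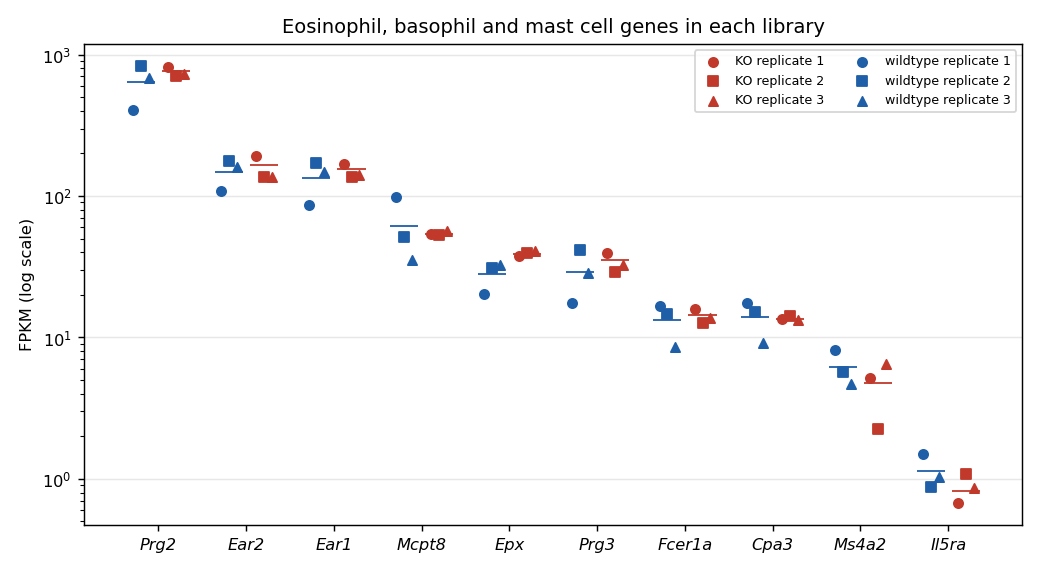
Level of each member in each library, in FPKM on a log scale, with genes ordered by mean level. Blue points are wildtype libraries and red points KO libraries, with a marker shape per replicate, and short lines are group means (KO replicates 2 and 3 counted as 1 sample). The wildtype points are spread more widely than the KO points for most genes, and the groups overlap for all genes but Epx.

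Whether KO cartilage differed from wildtype cartilage in these transcripts was tested with edgeR's quasi-likelihood test on counts across all 15373 genes that averaged 0.5 FPKM or more, which all 10 members passed. None of the 10 members had an adjusted p-value under 0.05, in a fit that called 0 genes in all (background 0%). At an unadjusted p under 0.05, 0 of 10 members were counted, against 13.7% of all genes tested (7.63% higher and 6.07% lower in KO). Of the members, 6 had a log2 difference (KO minus wildtype) above 0 and 4 below it, beside 47.5% above 0 among all genes. The median over the members was 0.16, compared with -0.02 over all genes. Adjusted p-values of the members ranged from 0.386 to 0.991. With the 6 libraries taken as labelled, 0 members were called while 3.71% of genes were (2.46% higher and 1.25% lower in KO), and with DESeq2 0 members were called against 5.96% of genes.

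The eosinophil granule genes were described next, starting with Prg2 (ENSMUSG00000027073, chr2:84980461-84983632, GRCm38). Prg2 was at 812, 707 and 729 FPKM in KO replicates 1, 2 and 3, and at 406, 832 and 678 FPKM in wildtype replicates 1, 2 and 3. The KO values lay inside the wildtype range, and wildtype replicate 1 was the low library. The mean was 765 ± 66.3 FPKM in KO (SD, n = 2 samples) and 638 ± 216 FPKM in wildtype (SD, n = 3), a log2 difference of 0.27 (SE 0.32, 95% interval -0.48 to 1.02, edgeR adjusted p = 0.802). The difference was 0.02 without wildtype replicate 1, 0.12 without KO replicate 1 and 0.54 without wildtype replicate 2.

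Prg3 (ENSMUSG00000027072, chr2:84988215-84993886) is the neighbour of Prg2 on the same strand, 4582 bases away with no gene of the table between them. It was at 39.5, 29.1 and 32.7 FPKM in the KO libraries and 17.4, 41.4 and 28.5 FPKM in the wildtype libraries. The order of the wildtype libraries was that of Prg2, with replicate 1 lowest and replicate 2 highest, and the groups overlapped. The log2 difference was 0.28 (SE 0.36, 95% interval -0.56 to 1.13, edgeR adjusted p = 0.823). It was 0.01 without wildtype replicate 1, 0.03 without KO replicate 1 and 0.66 without wildtype replicate 2. The ratio of Prg2 to Prg3 stayed between 20.1 and 24.3 in the 6 libraries, while the level of Prg2 itself varied 2.05-fold among wildtype libraries. The longest transcripts of the pair were 57.0% identical and shared no stretch of 150 bases, the read length.

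Epx (ENSMUSG00000052234, chr11:87864000-87875536), the peroxidase that forms hypobromous acid, was at 37.4, 39.8 and 40.7 FPKM in KO and 20.4, 30.9 and 32.5 FPKM in wildtype. It was the single member whose groups did not overlap, with every KO library above every wildtype library, a separation in that direction that 12.5% of all genes tested showed. The means were 38.8 ± 1.98 FPKM in KO (SD, n = 2 samples) and 27.9 ± 6.54 FPKM in wildtype (SD, n = 3), a 1.39-fold ratio. The log2 difference of 0.49 (SE 0.22, 95% interval -0.02 to 1.0) did not pass the test (edgeR adjusted p = 0.386). It was 0.48 without KO replicate 1 and 0.50 without KO replicates 2 and 3, so the KO samples gave like values, and 0.29 without wildtype replicate 1. Over all alternatives it lay between 0.29 and 0.61, with adjusted p-values from 0.172 to 0.600.

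Ear1 (ENSMUSG00000072601, chr14:43818765-43875517) and Ear2 (ENSMUSG00000072596, chr14:44102654-44103534) encode secreted ribonucleases of eosinophil granules. Ear1 was at 169, 137 and 140 FPKM in KO and 86.2, 171 and 149 FPKM in wildtype. Its log2 difference was 0.20 (SE 0.30, 95% interval -0.51 to 0.91, edgeR adjusted p = 0.861). Ear2 was at 193, 136 and 137 FPKM in KO and 109, 178 and 160 FPKM in wildtype, for a log2 difference of 0.17 (SE 0.27, 95% interval -0.46 to 0.80, edgeR adjusted p = 0.874). In both genes wildtype replicate 1 was lowest and the groups overlapped. KO replicate 1 lay with the higher wildtype libraries for Ear1 and above every wildtype library for Ear2. The sign of both differences rested on single libraries, since it was -0.01 for Ear1 and -0.17 for Ear2 without KO replicate 1, and -0.05 and -0.03 without wildtype replicate 1.

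Ear1 and Ear2 are close copies, so their separate values are uncertain. Their longest transcripts were 96.0% identical but shared no exact stretch of 150 bases, and the ratio of Ear2 to Ear1 lay between 0.973 and 1.26. Summing Ear1, Ear2 and their relative Ear6 (62.2% and 62.6% identical to them) to 1 row, a step added after the values were seen, gave a log2 difference of 0.23 (edgeR adjusted p = 0.829). In the GENCODE annotation the span of Ear1 also holds the pseudogenes Ear-ps12, Ear-ps9 and Ang-ps2, and antisense RNAs overlap both genes (AC154806.1 and Gm49101). The libraries were strand-specific, but the strand setting of the counting was not given in the sources used here.

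The 2 genes are alike upstream of their RefSeq starts as well. Their promoters are shown because the pair had like levels and like profiles across libraries. The sequences are from RefSeq (GRCm38.p6), 250 bases before and 50 from the RefSeq start on, written 5′ to 3′ on the gene's strand, with matches to GATAA or its reverse complement TTATC in capitals, the core letters bound by GATA factors.
Ear1 promoter (chr14:43819590-43819889, minus strand): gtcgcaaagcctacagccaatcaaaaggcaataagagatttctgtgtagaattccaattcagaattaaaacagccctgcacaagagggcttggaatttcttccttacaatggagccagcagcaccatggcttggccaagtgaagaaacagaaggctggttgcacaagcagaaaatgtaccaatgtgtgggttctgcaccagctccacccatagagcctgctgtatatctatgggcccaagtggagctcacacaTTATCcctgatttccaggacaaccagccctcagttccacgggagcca
Ear2 promoter (chr14:44102404-44102703, plus strand): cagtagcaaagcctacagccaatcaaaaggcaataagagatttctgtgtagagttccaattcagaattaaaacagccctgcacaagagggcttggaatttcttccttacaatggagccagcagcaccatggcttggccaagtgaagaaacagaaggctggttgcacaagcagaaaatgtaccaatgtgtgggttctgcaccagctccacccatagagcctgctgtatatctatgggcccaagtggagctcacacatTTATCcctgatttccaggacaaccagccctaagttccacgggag
The aligned pair had 294 identical, 3 mismatched and 6 gapped positions (97.0% identity), and each held 1 GATA match just after its start and 1 match to TTGCNNAA, a C/EBP-type letter string. The Ear1 window lies wholly inside the annotated span of Ear1 (chr14:43818765-43875517), whereas that of Ear2 crosses its annotated start.

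Il5ra (ENSMUSG00000005364, chr6:106710357-106749037) was at 0.675, 1.09 and 0.869 FPKM in KO and 1.50, 0.882 and 1.03 FPKM in wildtype, from 142 to 355 counts per library. Unlike the granule genes, it was highest in wildtype replicate 1 and lowest in KO replicate 1, and the groups overlapped. The log2 difference was -0.44 (SE 0.31, 95% interval -1.18 to 0.30, edgeR adjusted p = 0.627). It stayed below 0 under each alternative that tested it, between -0.66 and -0.21, and a minimum of 5 FPKM left it out.

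The basophil and mast cell members showed another order of libraries. Mcpt8 (ENSMUSG00000022157, chr14:56082166-56085273) was at 53.6, 52.9 and 56.4 FPKM in KO and 98.8, 51.1 and 35.1 FPKM in wildtype. The 3 KO libraries were close together and lay between wildtype replicate 1, the highest, and wildtype replicate 3, the lowest. The log2 difference was -0.16 (SE 0.38, 95% interval -1.04 to 0.73, edgeR adjusted p = 0.925), and without wildtype replicate 1 it was 0.32.

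Cpa3 (ENSMUSG00000001865, chr3:20215620-20242181) was at 13.4, 14.1 and 13.2 FPKM in KO and 17.4, 15.1 and 9.13 FPKM in wildtype. The log2 difference was -0.02 (SE 0.27, 95% interval -0.65 to 0.61, edgeR adjusted p = 0.991), so a difference of up to about 0.6 in either direction lay within the interval. Fcer1a (ENSMUSG00000005339, chr1:173221284-173227214) was at 15.9, 12.6 and 13.7 FPKM in KO and 16.6, 14.6 and 8.54 FPKM in wildtype, for a log2 difference of 0.16 (SE 0.30, 95% interval -0.54 to 0.86, edgeR adjusted p = 0.897). For both genes the KO libraries lay inside the wildtype range, with wildtype replicate 1 highest and replicate 3 lowest as for Mcpt8.

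Ms4a2 (ENSMUSG00000024680, chr19:11615523-11623719) was at 5.13, 2.24 and 6.45 FPKM in KO and 8.09, 5.67 and 4.68 FPKM in wildtype. The wildtype libraries had the order of the other 3 genes of the group, whereas KO replicate 2 was the lowest of all libraries. The log2 difference was -0.35 (SE 0.25, 95% interval -0.94 to 0.25, edgeR adjusted p = 0.636). It depended on which of the near-identical KO libraries entered, being -0.07 without KO replicate 2 and -0.69 without KO replicate 3. Without KO replicate 1 the log2 differences were -0.25 for Il5ra, -0.20 for Mcpt8, -0.06 for Cpa3, -0.04 for Fcer1a and -0.53 for Ms4a2.

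**Figure D2:**
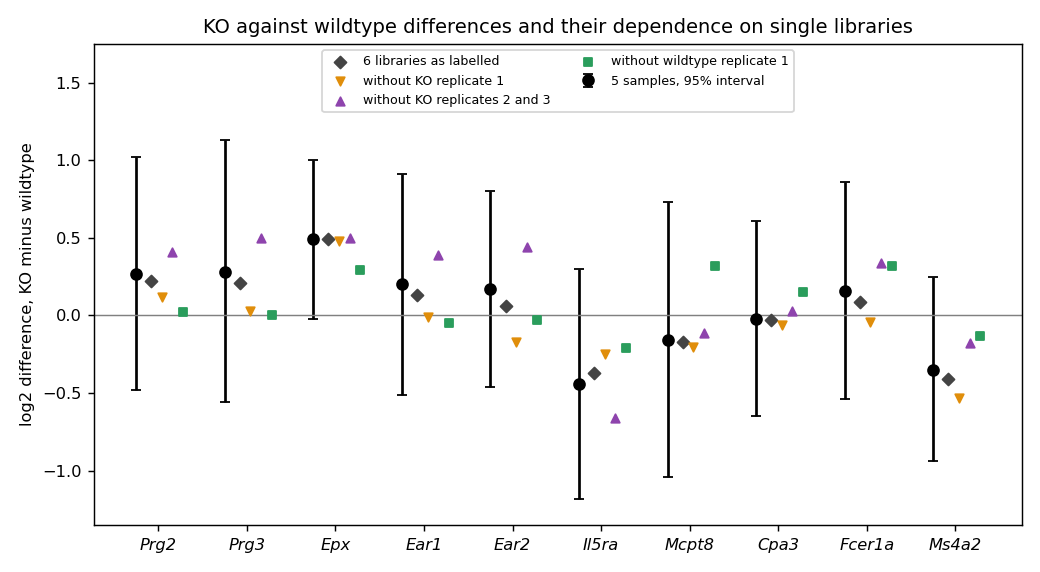
Log2 difference (KO minus wildtype) of each member. Black points are the fit of 5 samples with its 95% interval, and coloured markers are the values with the 6 libraries as labelled and with single libraries left out. Every interval includes 0, and leaving out wildtype replicate 1 (green squares) moved the eosinophil granule genes down and the basophil and mast cell genes up.

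The counts of Ms4a2 in KO replicates 2 and 3, which otherwise agree closely, were 445 and 1279. Scaled to the library totals this was a 2.87-fold difference (log2 1.52). Among 12419 genes with at least 200 counts in both libraries, 15 genes (0.121%), Ms4a2 included, were at least as far apart, and the median absolute log2 difference was 0.068 with a 99th percentile of 0.54. Of the other members, 8 differed by 0.17 or less between the 2 libraries, and Il5ra, at the lowest counts, by -0.33. Fcer1a, the partner chain of Ms4a2 in the receptor, was 1.09-fold higher in KO replicate 3, so the ratio of Fcer1a to Ms4a2 was 5.63 in KO replicate 2 and 1.83 to 3.10 in the other libraries. The neighbouring gene Ms4a3, 5776 bases away and a gene of myeloid precursors, was at 141 and 137 FPKM in the pair.

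**Figure D3:**
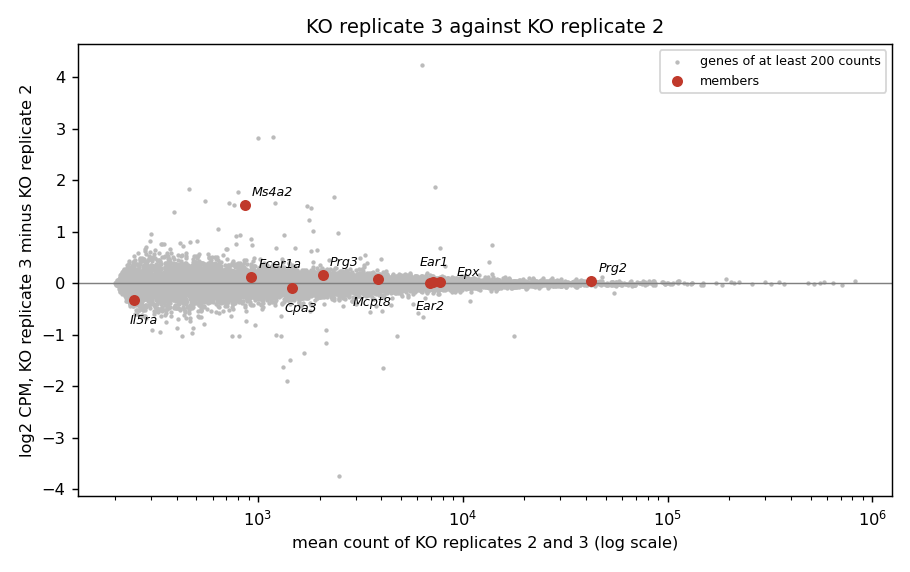
Log2 difference between KO replicate 3 and KO replicate 2 (counts scaled to library totals) against the mean count of the pair on a log axis, for 12419 genes (grey) and the members (red). Ms4a2 lies at 1.52, well outside the grey band, Il5ra lies at -0.33 and the other 8 members lie within 0.17 of 0.

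The spread among wildtype libraries was then set beside that of all genes. The ratio of the highest to the lowest wildtype library was 1.59 to 2.82 over the members, whereas it had a median of 1.21 and a 90th percentile of 1.54 over the 7614 genes that averaged 5 FPKM or more. The members' ratios were above those of 91.3% (Epx) to 98.3% (Mcpt8) of these genes, although Il5ra, under 5 FPKM, has more counting error than the genes it is set beside. The KO libraries, of which 2 are near-identical, were closer together, with ratios of 1.06 to 1.41 for 8 members, 1.61 for Il5ra and 2.88 for Ms4a2. KO replicate 1 stood apart from the other 2 in some members, at 0.48 for Ear2 on the log2 CPM scale relative to the wildtype mean, against -0.13 and -0.13.

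In wildtype, the eosinophil granule genes and the basophil and mast cell genes were spread along different libraries. Relative to the wildtype mean of log2 CPM (counts scaled to library size), wildtype replicate 1 was at -0.46 to -0.70 for Prg2, Prg3, Epx, Ear1 and Ear2, and at 0.33 to 0.77 for Mcpt8, Cpa3, Fcer1a and Ms4a2. Wildtype replicate 3 was at 0.05 to 0.24 for the 5 granule genes and at -0.36 to -0.69 for the 4 others. The summed level of the 6 eosinophil genes was 640, 1254 and 1048 FPKM in wildtype replicates 1, 2 and 3, whereas that of the 4 basophil and mast cell genes was 141, 86.5 and 57.4 FPKM. Most of the eosinophil sum was Prg2 (406, 832 and 678 FPKM), and most of the other sum was Mcpt8 (98.8, 51.1 and 35.1 FPKM). The ratio of Prg2 to Mcpt8 was accordingly 4.11, 16.3 and 19.3 in wildtype, and 15.1, 13.4 and 12.9 in KO. The KO libraries summed to 1251, 1050 and 1080 FPKM for the eosinophil genes and 88.0, 81.9 and 89.8 FPKM for the others.

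**Figure D4:**
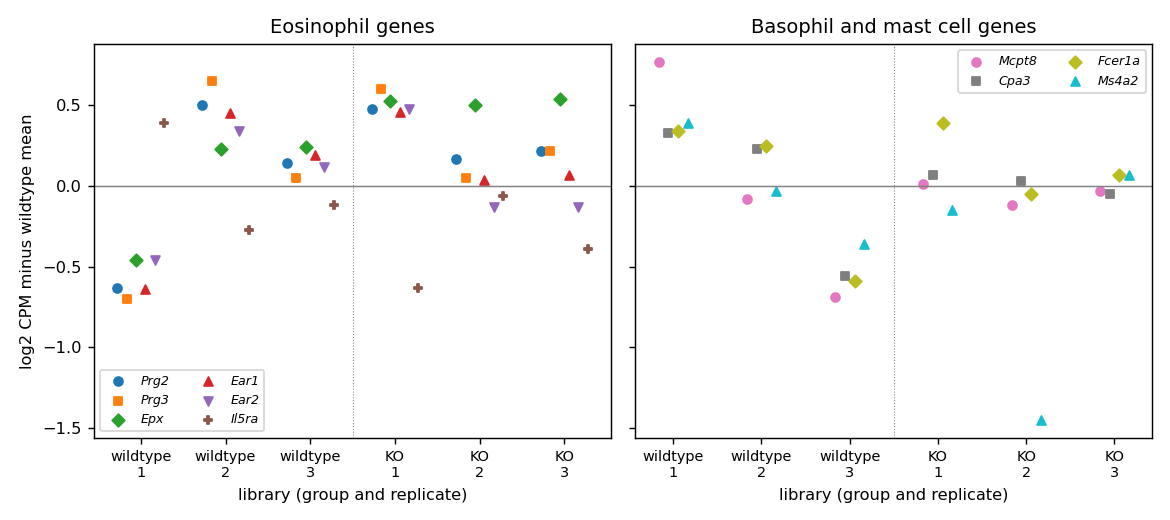
Level of each member in each library as log2 CPM minus the wildtype mean, with eosinophil genes on the left and basophil and mast cell genes on the right. In wildtype replicate 1 the granule genes of eosinophils lie at -0.46 to -0.70 and the basophil and mast cell genes at 0.33 to 0.77, while Il5ra lies at 0.39 and Ms4a2 in KO replicate 2 at -1.45.

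The genes whose profiles over the 6 libraries were nearest to the most abundant member of each group were then sought among 7613 genes, by the root mean square difference of centred log2 CPM. This is a description over 6 libraries of which 2 are near-identical. Among the nearest to Prg2 were Ear1 (0.068), Cenps (0.073), Gm16556 (0.086) and Ear6 (0.086). Prg3 ranked 7, Ear2 34 and Epx 71, whereas Fcer1a ranked 6220, Cpa3 6369, Mcpt8 7300 and Ms4a2 7352. Nearest to Mcpt8 were Sp7 (0.141), Prss34 (0.149), Malat1 (0.171), Ccn4 (0.183) and Fkbp10 (0.199). Cpa3 ranked 13 and Fcer1a 27, while Ms4a2 ranked 5497 and Prg2 7232. Prss34, another basophil protease, was at 83.6, 100 and 107 FPKM in KO and 140, 86.5 and 59.8 FPKM in wildtype, with the order of wildtype libraries seen for Mcpt8. Sp7, a transcription factor of osteoblasts, was at 17.3, 9.93 and 6.47 FPKM in wildtype and 7.73 to 9.08 FPKM in KO.

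Promoter letters were compared between members, with the letter strings chosen after the values were seen. A promoter from RefSeq was at hand for 9 members. GATAA or TTATC occurred in 7 of the 9, and in 25.4% of 32851 promoters of the same length. TTGCNNAA or its reverse complement TTNNGCAA occurred in 3 of the 9 (Ear1, Ear2 and Fcer1a) and in 10.8% of all. The near-identical promoters of Ear1 and Ear2 (97.0% identity) were counted separately in both tallies. Epx and Mcpt8 held neither string. The promoters below are those of Prg3, beside Prg2, of Mcpt8, the leading basophil gene and without a match, of Cpa3, whose match lies near the start, and of Ms4a2, which held 3 GATA matches (capitals as above).
Prg3 promoter (chr2:84987965-84988264, plus strand): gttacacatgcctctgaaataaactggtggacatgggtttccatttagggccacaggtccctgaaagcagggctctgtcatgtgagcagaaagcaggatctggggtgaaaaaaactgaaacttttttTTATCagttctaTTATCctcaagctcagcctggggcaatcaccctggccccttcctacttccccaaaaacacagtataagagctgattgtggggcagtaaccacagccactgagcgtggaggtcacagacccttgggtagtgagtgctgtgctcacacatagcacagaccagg
Mcpt8 promoter (chr14:56085148-56085447, minus strand): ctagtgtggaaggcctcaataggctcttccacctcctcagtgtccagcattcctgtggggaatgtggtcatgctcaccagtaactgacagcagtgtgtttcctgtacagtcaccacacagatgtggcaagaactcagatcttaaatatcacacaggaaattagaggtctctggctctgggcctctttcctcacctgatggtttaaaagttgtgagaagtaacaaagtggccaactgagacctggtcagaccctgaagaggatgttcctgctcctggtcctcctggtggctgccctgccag
Cpa3 promoter (chr3:20242132-20242431, minus strand): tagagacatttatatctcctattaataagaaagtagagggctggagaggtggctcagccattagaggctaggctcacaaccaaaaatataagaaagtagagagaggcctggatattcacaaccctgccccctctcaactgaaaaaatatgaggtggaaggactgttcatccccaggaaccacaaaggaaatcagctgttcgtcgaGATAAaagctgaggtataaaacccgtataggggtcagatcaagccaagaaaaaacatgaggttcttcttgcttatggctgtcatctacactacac
Ms4a2 promoter (chr19:11623670-11623969, minus strand): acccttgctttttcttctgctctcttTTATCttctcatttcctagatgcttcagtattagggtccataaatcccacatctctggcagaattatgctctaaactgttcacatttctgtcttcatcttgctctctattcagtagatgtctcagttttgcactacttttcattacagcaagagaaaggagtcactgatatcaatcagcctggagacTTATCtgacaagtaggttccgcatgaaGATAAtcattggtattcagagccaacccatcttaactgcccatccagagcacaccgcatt
The match of Cpa3 lay at positions -45 to -41, those of Prg3 began at positions -123 and -111 and those of Ms4a2 at -224, -37 and -10, counted from the start. A match of letters is not a binding site.

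The members were then set beside the other genes of their pathways. The wider lists held 58 genes for eosinophil development and trafficking, for mast cells and basophils and for signalling from the IgE receptor, of which 54 were in the table and 40 passed the filter. None of the 40 had an adjusted p under 0.05 (edgeR), and 11 were higher and 4 lower in KO at an unadjusted p under 0.05, beside 7.63% and 6.07% of all genes tested. Every KO sample lay above every wildtype sample for 13 of the 40 and below for 6, beside 12.5% and 16.0% of all genes tested. At the unadjusted level none of the 10 members was counted, while 8 of the 12 neutrophil and granulocyte precursor markers were higher. Some listed genes are also expressed by neutrophils and their precursors, and the part of those cells in these counts was not tested. The median log2 difference was 0.34 for eosinophil development and trafficking (9 higher and 4 lower), -0.08 for mast cells and basophils (6 higher and 8 lower) and 0.19 for receptor signalling (9 higher and 4 lower), with -0.02 over all genes. With the 6 libraries as labelled, which called 3.71% of all genes, 6 of the 40 were called (Alox5, Hdc, Alox5ap, Cebpe and Csf2ra higher, Il1rl1 lower), and with DESeq2, which called 5.96% of all genes, 10 were, adding Csf2rb and Fcer1g as higher and Ccr3 and Gata1 as lower.

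Cebpe, a transcription factor needed for late granulocyte maturation, was at 86.9, 87.8 and 82.2 FPKM in KO and 42.8, 57.8 and 46.5 FPKM in wildtype. The groups were apart, with a log2 difference of 0.82 (SE 0.17, 95% interval 0.42 to 1.23, edgeR adjusted p = 0.166), and the value was 0.75 without KO replicate 1. Such a separation with KO higher was seen in 12.5% of all genes tested. Csf2ra, the alpha chain of the GM-CSF receptor, was at 41.7, 67.2 and 64.6 FPKM in KO and 36.3, 28.6 and 31.9 FPKM in wildtype, a log2 difference of 0.75 (SE 0.18, edgeR adjusted p = 0.175). KO replicate 1 lay nearer to wildtype than KO replicates 2 and 3, and the value was 0.45 without that pair.

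Ccr3, the eotaxin receptor that guides mature eosinophils, was at 3.25, 2.92 and 2.45 FPKM in KO and 4.55, 5.19 and 6.80 FPKM in wildtype. Its log2 difference was -0.87 (SE 0.24, 95% interval -1.43 to -0.31, edgeR adjusted p = 0.199), with every KO library below every wildtype library, as for 16.0% of all genes tested, and it was -1.07 without KO replicate 1. Il1rl1, the receptor of interleukin 33, was at 2.61, 2.15 and 2.29 FPKM in KO and 4.08, 3.93 and 4.45 FPKM in wildtype, a log2 difference of -0.76 (SE 0.17, edgeR adjusted p = 0.168) that was -0.94 without KO replicate 1. Siglecf, a lectin on mature eosinophils, was at 4.18, 6.56 and 5.18 FPKM in KO and 3.78, 4.20 and 3.92 FPKM in wildtype, for a log2 difference of 0.35 (SE 0.19, edgeR adjusted p = 0.499). Of these surface receptors, Ccr3 and Il1rl1 lay lower in every KO library and Siglecf did not separate the groups, while Il5, Csf2, Ccl11 and Ccl24, the cytokines and chemokines that act on eosinophils, were all under 1 FPKM in every library.

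Of the mast cell and basophil list, the 3 genes with the smallest p-values act in the synthesis of leukotrienes and histamine. Alox5, the lipoxygenase of leukotriene synthesis, was at 27.4, 36.1 and 37.0 FPKM in KO and 18.5, 17.7 and 19.5 FPKM in wildtype, a log2 difference of 0.80 (SE 0.13, edgeR adjusted p = 0.166). Alox5ap, its activating protein, was at 272, 359 and 363 FPKM in KO and 164, 197 and 162 FPKM in wildtype (log2 difference 0.87, SE 0.18, edgeR adjusted p = 0.166). Hdc, which makes histamine, was at 22.8, 36.8 and 35.8 FPKM in KO and 16.8, 16.1 and 17.0 FPKM in wildtype (log2 difference 0.84, SE 0.17, edgeR adjusted p = 0.166). These 3 genes are also expressed by neutrophils and their precursors. Without KO replicates 2 and 3 their log2 differences were 0.64, 0.72 and 0.53. Ltc4s, the leukotriene C4 synthase on the same list, lay in the other direction. It was at 1.53, 0.792 and 0.628 FPKM in KO and 3.19, 1.35 and 1.77 FPKM in wildtype, with overlapping groups (log2 difference -0.87, SE 0.51, edgeR adjusted p = 0.533).

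Hpgds, the synthase of prostaglandin D2 in mast cells, was at 1.88, 2.13 and 2.14 FPKM in KO and 3.32, 2.21 and 3.70 FPKM in wildtype, for a log2 difference of -0.59 (SE 0.23, edgeR adjusted p = 0.312). Kit, the stem cell factor receptor of mast cells and progenitors, was at 5.05, 6.14 and 6.39 FPKM in KO and 5.39, 4.27 and 4.64 FPKM in wildtype, a log2 difference of 0.26 (SE 0.14, edgeR adjusted p = 0.474). The proteases of connective tissue mast cells were nearly undetected. Cma1 lay between 0.051 and 0.407 FPKM, Mcpt4 between 0 and 0.178 FPKM and Tpsb2 between 0 and 0.132 FPKM, far under the 9.13 to 17.4 FPKM of Cpa3 in the same libraries.

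In the IgE receptor pathway, Fcer1g, the signalling gamma chain that other Fc receptors also use, was at 212, 236 and 227 FPKM in KO and 149, 173 and 154 FPKM in wildtype. Its groups were apart, as for 12.5% of all genes tested in that direction. The log2 difference was 0.50 (SE 0.14, 95% interval 0.17 to 0.83, edgeR adjusted p = 0.202), and it was 0.51 without KO replicate 1. The alpha and beta chains, Fcer1a and Ms4a2, had log2 differences of 0.16 and -0.35 in the same fit. Downstream, Vav1 and Plcg2, a guanine nucleotide exchange factor and a phospholipase, had log2 differences of 0.49 each (edgeR adjusted p = 0.278 and 0.361), and Lyn, the kinase that phosphorylates the receptor, of 0.35 (edgeR adjusted p = 0.364). These 3 values fell to 0.21, 0.10 and 0.17 without KO replicates 2 and 3. The 3 genes were named for their small p-values, and the list did not move as a whole. Of its 13 tested genes 9 lay higher and 4 lower in KO. The lower ones were Fyn (-0.27), Plcg1 (-0.27), Lat (-0.26) and Lat2 (-0.04).

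**Figure D5:**
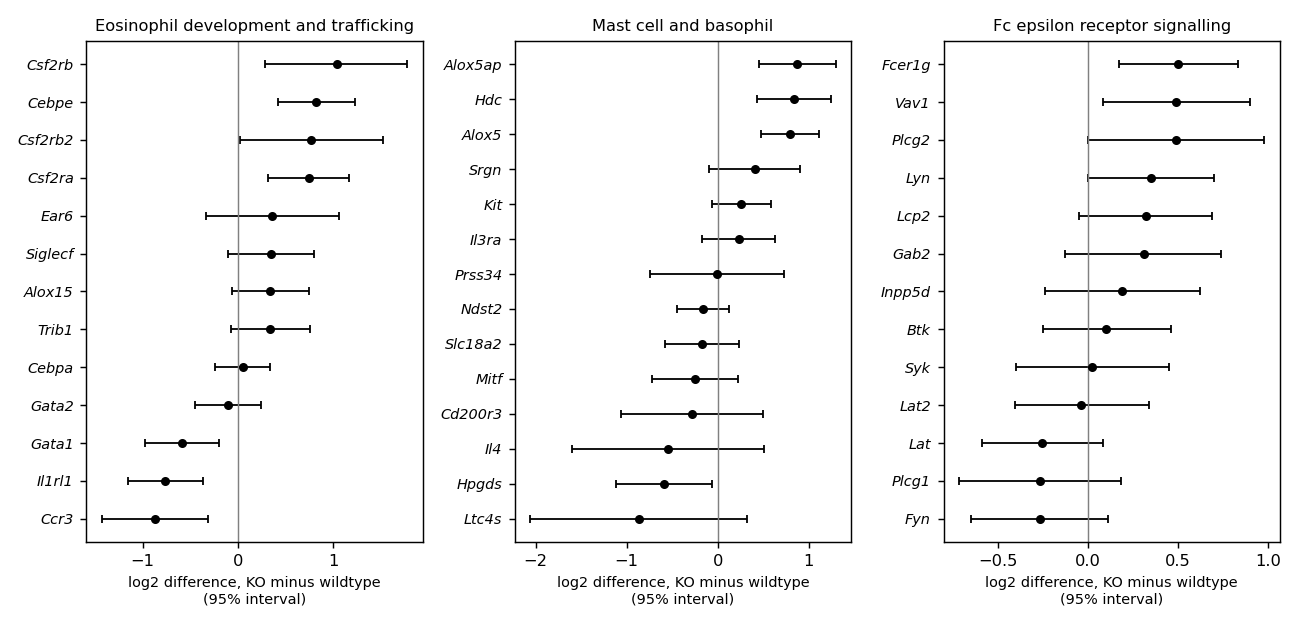
Log2 difference (KO minus wildtype) with its 95% interval for the 40 tested genes of the 3 wider lists, ordered by value within each list. The intervals of 11 genes lie above 0, with Csf2rb at 1.04 the highest value, and those of Ccr3, Il1rl1, Gata1 and Hpgds lie below 0, although no adjusted p passed 0.05.

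Markers of other blood cells differed in sign between the groups by list, although none had an adjusted p under 0.05 in the edgeR fit of 5 samples. All 12 neutrophil and granulocyte precursor markers lay higher in KO (median log2 difference 0.87, 8 at an unadjusted p under 0.05), and all 9 erythroid markers (median -0.91, 4 at that level), all 10 B cell markers (median -1.47, all 10 at that level) and all 6 megakaryocyte and platelet markers (median -0.31, none at that level) lay lower. At that level 7.63% of all genes were higher and 6.07% lower. Of 7 macrophage markers 2 lay higher and 5 lower (median -0.31, 1 lower at that level), and of 7 T and NK cell markers 1 lay higher and 6 lower (median -0.34, 1 higher and 2 lower at that level). With the 6 libraries as labelled, which called 3.71% of all genes, 9 B cell, 1 erythroid and 1 macrophage marker were called lower. In that fit 4 neutrophil and granulocyte precursor markers were called higher. DESeq2, which called 5.96% of all genes, called 10 B cell, 8 neutrophil, 3 erythroid, 1 macrophage and 1 T and NK cell marker. None of these lists had a marker at 0 in any library. The summed B cell markers were at 286 to 320 FPKM in wildtype, compared with 141, 90.5 and 93.6 FPKM in the KO libraries. In wildtype replicates 1, 2 and 3 the neutrophil markers summed to 26699, 43339 and 30355 FPKM, so the library with the lowest eosinophil granule genes had the lowest sum there too. Among wildtype libraries, replicate 1 also had the lowest erythroid (71710, 82967 and 108566 FPKM) and chondrocyte sums (759, 1008 and 906 FPKM). The B cell sum was highest there, and the megakaryocyte and platelet, macrophage, and T and NK cell sums were not lowest there. Of the 12 neutrophil markers, Ltf (668, 666 and 664 FPKM) and Mmp9 (253, 169 and 200 FPKM) were not lowest in wildtype replicate 1, and all others were. The part of these cells in the values of the members was not tested.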

How the data were processed

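Total RNA of articular cartilage was sequenced as strand-specific, oligo(dT)-selected libraries with molecular identifiers. The submitters' processing notes name cutadapt 1.9, HISAT2 2.0.4, UMI-tools, StringTie 1.3.4d, DESeq2 and edgeR. The authors deposited a single table of 34709 genes with FPKM values and counts per library. The deposited counts were whole numbers that behave as estimated counts, since low values piled up at 4 (6596 values, against 4170 at 3 and 2332 at 5), so a count is not taken as 1 read pair. No per-sample column was left unused. Coordinates matched GENCODE M21 (GRCm38) exactly for 87.0% of 34607 genes and for all 10 members. The knocked-out gene and 1 of the nearest profiles are not reported here.

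Counts were tested with edgeR 4.0.16 (R 4.3.3) using TMM scaling, the quasi-likelihood test, and Benjamini-Hochberg adjustment over the 15373 genes of at least 0.5 mean FPKM. Calls were made at an adjusted p under 0.05. KO replicates 2 and 3 were merged by averaged, rounded counts. The log2 CPM values used a prior count of 2. Alternatives were limma 3.58.1 on log2(FPKM + 1) and log2(FPKM + 0.1), DESeq2 1.42.0, other scalings and filters, counts divided by 4, a replicate block, and libraries left out. The script was tested on simulated data. The members, lists and tests were chosen with earlier results of these data known. Named were the 10 members, up to 4 genes of each wider list with the smallest unadjusted p, the receptors Siglecf, Ccr3, Kit and Fcer1g, and the 5 nearest profiles of Prg2 and of Mcpt8. Other genes were named after their values were seen. Il3, Mcpt1, Tpsab1 and Mrgprb2, of the wider lists, matched no row by gene name, so they have no values here.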

Additional observations from a re-analysis of the deposited data

How the results depend on the processing

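None of the 10 members was called under any alternative. Of 177 member values under alternatives 162 kept their direction and 15 reversed, none passed an adjusted p of 0.05, and 6, all of Epx, had an unadjusted p under 0.05. The reversed values lay between -0.17 and 0.15 except for Mcpt8 without wildtype replicate 1 (0.32). Leaving out 1 library gave log2 differences of 0.02 to 0.54 for Prg2, 0.01 to 0.66 for Prg3, -0.05 to 0.44 for Ear1, -0.17 to 0.35 for Ear2, -0.42 to 0.32 for Mcpt8, -0.24 to 0.15 for Cpa3 and -0.07 to 0.32 for Fcer1a, with reversals to -0.01 (Ear1), -0.17 (Ear2) and -0.04 (Fcer1a) without KO replicate 1, to -0.05 (Ear1), -0.03 (Ear2) and 0.15 (Cpa3) without wildtype replicate 1, to 0.08 (Cpa3) without wildtype replicate 2, to -0.07 (Fcer1a) without wildtype replicate 3, to 0.0027 (Cpa3) without KO replicate 3 and to 0.03 (Cpa3) without KO replicates 2 and 3. Cpa3 was also 0.0088 and 0.01 with limma at pseudocounts of 1 and 0.1, and 0.02 without a filter on FPKM.

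The number of genes called over the whole table moved from 0 to 570 with the 6 libraries as labelled, to 880 with DESeq2, to 21 without a filter and to 9 without KO replicates 2 and 3. Leaving out 1 library gave 0 to 352 genes, with 352 without KO replicate 1 (which left 1 KO sample, assumed to vary like wildtype) and 1 each without wildtype replicate 2 and without wildtype replicate 3. Of the wider lists, 6 genes were called as labelled and 10 with DESeq2, and leaving out 1 library gave 0 to 6, the 6 being those without KO replicate 1, on the same 1 KO sample (Csf2rb, Hdc, Csf2ra, Alox5, Csf2rb2 and Plcg2, all higher in KO). The causes were not tested.

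With the replicate number as a block on the 6 libraries as labelled, 0 genes and 0 members were called, and Cpa3 moved to 0.02. Same-numbered libraries did not deviate together (correlations of -0.21, -0.18 and 0.0014), so the numbers were not taken to pair the samples. With 2 KO samples the intervals were wide, and that of Mcpt8, the widest among the members, ran from -1.04 to 0.73.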
